A study of Mus musculus with 7 samples.

Results

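The regions described here are the Pygo2 ChIP-seq peaks that lay at the ends of protein-coding genes and did not overlap a β-catenin peak. They were chosen from the deposited peak lists by position alone: a member shared not even 1 bp with any peak of the β-catenin list, and its centre lay within 1 kb of the start or end coordinate of a protein-coding gene. Of 7150 Pygo2 peaks, 3128 met this rule (43.7%, 95% Wilson interval 42.6 to 44.9%), and they made up 45.5% of the 6877 Pygo2 peaks without β-catenin overlap. Since the calls of both proteins and the distance to gene ends chose the members, these properties describe the set and are not findings about it. The 95% intervals given with shares are of Wilson's kind and hold the counting error alone.

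Chromatin immunoprecipitation followed by sequencing was performed on branchial arches dissected from wild-type mouse embryos at 10.5 days post coitum. The 7 libraries were input BA1 and BA2, IgG BA1 (a pre-immune serum control), β-catenin BA1 and BA2, and Pygo2 BA1 and BA2. Each library was made from pooled arches, and neither the meaning of BA1 and BA2 nor the cell types of the arches is stated in the labels. The peak lists of the Pygo2 BA2 and β-catenin BA2 libraries were analysed, each called by the authors against IgG BA1 per the file headers, so that every value rests on 1 library per protein and no spread between embryos can be given.

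Pygo2 is a nuclear protein with a PHD finger that binds histone H3 methylated at lysine 4, a mark of active gene starts. In canonical Wnt signalling it is bridged by Bcl9 or Bcl9l to β-catenin, which in turn is held on DNA by TCF/LEF factors. Many mouse gene starts lie in CpG islands, stretches in which the dinucleotide CpG is not depleted, and such starts are typical of housekeeping genes. The branchial arches are embryonic swellings built of neural crest, mesoderm, ectoderm and endoderm, which give rise to structures of the face and neck and to the great vessels.

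Both libraries gave few tags per peak. The Pygo2 library held 15009636 tags, of which 111009 (0.740%) fell in peaks, a mean of 15.5 tags per peak at a calling minimum of 10. The β-catenin library held 13672937 tags, with a mean of 14.6 per peak over 1079 peaks at a minimum of 11. Because 1079 β-catenin peaks were called at this depth, the lack of an overlapping β-catenin peak says that none was called, not that β-catenin was absent. In pooled tissue, binding in few cells and weak binding in many cannot be told apart. Every deposited peak has the score 1 and the same width (167 bp for Pygo2), so neither ranks the peaks. Position in the deposited list is given in their place, although the sources used here do not state what the order means.

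The sequences under the members show the kind of DNA these peaks covered. A table of RefSeq start sites on GRCm38.p6 (mm10) holds, for each site, the bases from 250 before to 50 after the start. At 1687 members the peak overlapped such a window of its own gene. At 1457 of these, enough bases for printing (at least 20) lay both under the peak and before the start. The first 8 of the 1457 in list order, restricted to such bases, are shown 5′ to 3′ on the strand of the gene. Capitals mark a match to any of the motifs searched and described further on, and a sequence with no capitals holds none of them.

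H4c1, list position 5, minus strand, chr13:23761384-23761499: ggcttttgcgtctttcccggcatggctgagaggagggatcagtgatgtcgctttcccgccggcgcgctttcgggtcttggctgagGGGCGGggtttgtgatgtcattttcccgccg
H4f16, list position 6, minus strand, chr6:136804432-136804459: cgctcccaggaaatataagctcttgctc
H4c8, list position 8, plus strand, chr13:23530994-23531043: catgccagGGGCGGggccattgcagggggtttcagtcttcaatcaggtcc
Scaf1, list position 16, minus strand, chr7:45016253-45016419: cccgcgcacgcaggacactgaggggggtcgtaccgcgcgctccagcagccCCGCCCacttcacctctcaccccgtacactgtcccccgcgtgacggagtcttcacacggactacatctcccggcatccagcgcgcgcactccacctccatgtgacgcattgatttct
Wrap53, list position 19, minus strand, chr11:69579270-69579436: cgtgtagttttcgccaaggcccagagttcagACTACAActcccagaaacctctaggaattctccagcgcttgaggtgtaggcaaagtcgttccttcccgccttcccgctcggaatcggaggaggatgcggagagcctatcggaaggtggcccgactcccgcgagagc
Crocc, list position 20, minus strand, chr4:141060756-141060795: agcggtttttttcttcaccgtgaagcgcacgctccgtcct
Sde2, list position 23, plus strand, chr1:180850909-180851075: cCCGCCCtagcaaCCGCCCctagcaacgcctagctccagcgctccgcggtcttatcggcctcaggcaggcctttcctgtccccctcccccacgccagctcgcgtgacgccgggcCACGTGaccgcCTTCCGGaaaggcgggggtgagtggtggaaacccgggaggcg
Tmem129, list position 24, minus strand, chr5:33657978-33658091: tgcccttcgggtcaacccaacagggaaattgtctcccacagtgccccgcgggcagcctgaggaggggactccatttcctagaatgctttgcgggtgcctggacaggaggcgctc

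A further pair was chosen from members not printed above, as the first-listed examples with at least 100 such bases. They stand for the motifs whose shares stood furthest from those of all start sites, the SP/KLF GC box and the ETS core. Hexim1 encodes an inhibitor of the elongation factor P-TEFb, and its sequence carries a GC box beside an NRF1 match and an NFY match. Dohh encodes an enzyme that completes hypusine in the translation factor eIF5A, and its sequence carries an ETS core on each strand.

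Hexim1, list position 27, plus strand, chr11:103116075-103116233: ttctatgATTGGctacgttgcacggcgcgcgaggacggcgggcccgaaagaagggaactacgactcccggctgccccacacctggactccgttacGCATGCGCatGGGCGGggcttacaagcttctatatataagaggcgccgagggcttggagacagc
Dohh, list position 61, plus strand, chr10:81384262-81384428: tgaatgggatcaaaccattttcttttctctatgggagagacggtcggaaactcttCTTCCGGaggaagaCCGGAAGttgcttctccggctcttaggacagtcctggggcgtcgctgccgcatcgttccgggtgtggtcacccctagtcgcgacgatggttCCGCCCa

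The members were concentrated at gene starts, a distinction that the rule does not make. The RefSeq tables give a strand for 17491 of 21883 protein-coding genes. Among the 2575 members whose nearest end belongs to such a gene, 2430 were nearest to a start and 145 to a far end, so that starts made up 94.4% (interval 93.4 to 95.2%). Counted over all ends within 1 kb, 2496 of the 3128 members had a gene start, 103 had far ends only, and for 529 the kind of end was not known. Peaks shared with β-catenin at gene ends gave a like share of starts (107 of 114, 93.9%, interval 87.9 to 97.0%). Among β-catenin-only peaks at gene ends it was 168 of 190 (88.4%, interval 83.1 to 92.2%). These shares come from 1 library each and were not tested against each other.

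At starts the peaks lay close to the first base of the gene model and on both sides of it. The centre was within 100 bp of the start at 913 of the 2496 start members (36.6%) and within 200 bp at 1519 (60.9%). The median offset along the gene's strand was -6 bp, with quartiles of -135 and 167 bp, and 51.1% of the centres lay before the start. The start base itself was under the peak at 789 members (31.6%). A tail of 394 members (15.8%) lay 500 to 1000 bp away, and it was longer inside the gene model than before it. There were 41 members at 900 to 1000 bp after the start and 10 at the same distance before it. The start here is the outermost 5′ coordinate of the gene model. A member counted inside it can therefore lie at or before another start site of the gene, as at Scaf1 and Wrap53 below.

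**Figure D1:**
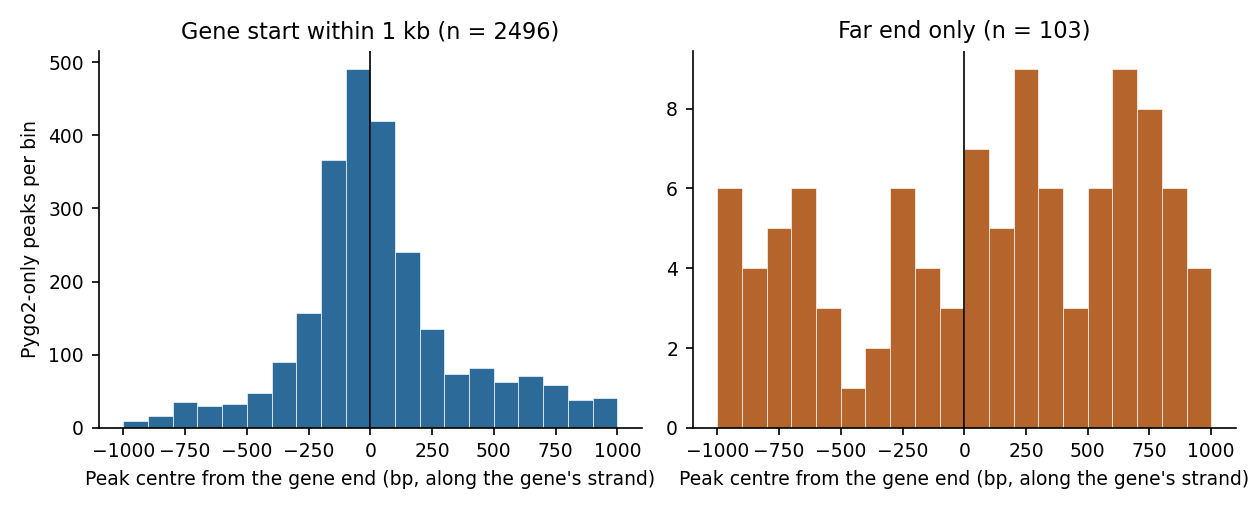
Number of Pygo2-only peaks in bins of 100 bp (vertical axis) by the position of the peak centre relative to the gene end (horizontal axis, in bp along the gene's strand, below 0 before the end and above 0 past it). The 2496 members with a gene start gather around the start, with 491 in the bin before it and 419 in the bin after it, whereas the 103 members with far ends only are spread over the window, with at most 9 in any bin.

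The few members with far ends only did not gather at the end. Their median distance from it was 556 bp, 19 of 103 (18.4%) lay within 200 bp, and 63 lay past the end. The first-listed of them was at Hes7, a repressor gene of the segmentation clock, at position 40 of the list (chr11:69124243-69124409, 272 bp past the end). This peak overlapped the tRNA gene n-TLtag3 (69124241 to 69124322), whose end was 4 bp from the peak centre. Other tRNA genes lie between the peak and the next protein-coding gene, with n-TQctg6 281 bp from the centre. The second Hes7 peak, at position 899, had its centre 84 bp from the tRNA gene n-TGgcc5. Others in list order were at Ctc1 (a telomere maintenance factor), Junb (an AP-1 subunit, 294 bp past its end), Gm20783, Sec14l2, Copz2, H1f3 (a linker histone), Mrpl58, Ctdsp1 and Zcchc3.

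Similar numbers of peaks lay on both sides of the 1 kb limit. The members furthest inside were at Garnl3 (998 bp) and Id1 (995 bp), and the nearest peaks outside were at Gm46294 (1001 bp), Myl9 (1006 bp) and Edn3 (1006 bp). There were 67 members at 900 to 1000 bp and 70 Pygo2-only peaks at 1000 to 1100 bp, compared with 1130 members within 100 bp of an end.

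Members stood earlier in the list than Pygo2-only peaks inside genes, a difference that was not tested. Their median position was at 35.7% of the Pygo2 list, compared with 63.4% for the 2166 Pygo2-only peaks inside genes but away from their ends. The 140 Pygo2 peaks at gene ends that overlapped a β-catenin peak stood earlier still, at 17.3%. In 10 equal bins of 715 peaks, members made up 63.4% of the first, 64.2% of the second, 45.0% of the sixth and 19.6% of the last. The median distance to the nearest gene end was 118 bp in the first bin and 239.5 bp in the last. The share of starts among members with a known kind of end was 96.8% in the first bin and 93.1% in the last.

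**Figure D2:**
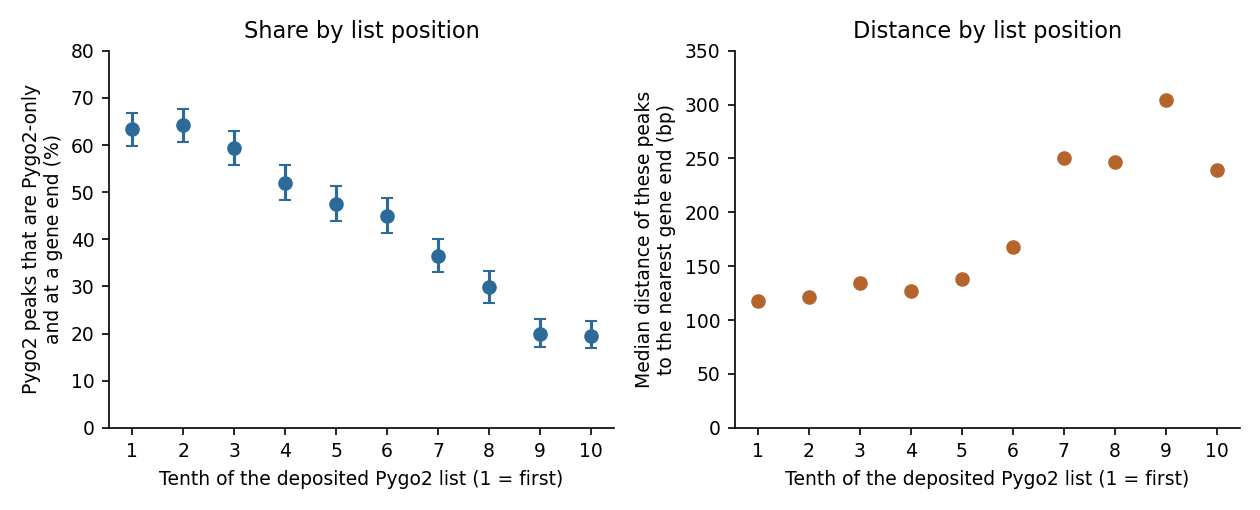
Left, share of the Pygo2 peaks in each bin of 715 list positions that are Pygo2-only and at a gene end (percent, bars are 95% Wilson intervals). Right, median distance of these members to the nearest gene end (bp); the share goes from 63.4% in the first bin to 19.6% in the last while the distance goes from 118 to 239.5 bp.

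The named regions Sirt4 and Phf12 illustrate how a gene end can hold more than 1 peak. Pygo2 peaks were called with a minimum distance of 332 bp between them, and whether neighbouring peaks are separate sites was not tested. Sirt4 encodes a mitochondrial sirtuin and had 3 members, at list positions 3 (chr5:115490014-115490180), 39 (chr5:115489632-115489798) and 81 (chr5:115489274-115489440). They lay 167, 549 and 907 bp inside the 5′ coordinate of the gene model, which spans 115478006 to 115490264 on the minus strand. The small nuclear RNA genes Gm24407 and Gm24265 lie there too: the first peak was 157 bp from an end of Gm24407, and the other peaks were 116 and 102 bp from an end of Gm24265. The Sirt4 start site in the RefSeq sequence table is 5060 bp from the nearest of the 3 peaks, so these peaks were at the outer edge of the annotated locus and not at that start. Which of these genes the peaks belong to was not tested.

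Phf12 encodes a PHD-finger protein of the Sin3 corepressor. Its 2 members were at list positions 10 (chr11:77981761-77981927, 889 bp before the start) and 45 (chr11:77982281-77982447, 369 bp before the start). The nearest β-catenin peak centres were 2.01 and 1.49 kb away. For the Sirt4 peaks the nearest β-catenin peak was over 171 kb away.

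The other genes at the head of the list had varied roles. The very first member, at list position 1, was at Asmt, which encodes the last enzyme of melatonin synthesis and lies in the pseudoautosomal region (chrX:170673262-170673428, 701 bp inside the start). Next came Fdx2 (a mitochondrial ferredoxin, 152 bp inside the start) and 3 histone H4 genes, H4c1 (218 bp before the start), H4f16 (55 bp inside it) and H4c8 (33 bp inside it). Kcnn1, a potassium channel gene, had a peak centred 2 bp before its start (chr8:70865610-70865776). Scaf1 encodes an RNA polymerase-associated splicing protein. Its peak was centred 68 bp inside the outermost coordinate of the gene, but before the start site used for the sequence above. The next lay just before a Wrap53 start site (Wrap53 encodes a telomerase assembly factor) and 897 bp inside the outermost coordinate of that gene, in the head-to-head locus with Trp53, the p53 gene.

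Further down were genes for the ciliary rootlet (Crocc), for Setd1b, a methyltransferase of histone H3 lysine 4 (its peak lies 467 bp inside the start of Rhof), for the splicing and genome maintenance factor Sde2, and for Tmem129 beside Tacc3, a spindle protein. Then came Hexim1, Grcc10, Mdc1 (a DNA damage mediator, 166 bp before the start), Dbp (a circadian transcription factor) with Car11, Timm13 with Lmnb2, Pcbp2 (an RNA-binding protein), Cep95 with Ddx5, Hes7, the histone pair H2bc18 and H3c13, and Tmem259. Of the 25 first-listed members, H4c8, Tmem129 and Dbp had a β-catenin peak centre within 1 kb without overlap, at 0.501, 0.594 and 0.206 kb.

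Across the genome the members reached 3480 of 21883 protein-coding genes, a background of 15.9% (interval 15.4 to 16.4%) against which the gene lists below are read. The background counts all protein-coding genes, among them olfactory and vomeronasal receptor genes, which had no member. It is not matched to the lists for CpG content. Of the CpG-rich start sites described further on, 25.05% had a member, counted by site and not by gene. Of the 3480 genes with a member, 3156 had 1, 306 had 2 and 18 had 3. A member had ends of 2 or more genes within 1 kb in 635 cases (20.3%), and 348 of the 2496 start members (13.9%) had starts on both strands, the arrangement of divergent gene pairs. Among genes with 3 members were Akt1s1, an mTORC1 inhibitor gene, and its neighbour Tbc1d17, which shared peaks at list positions 95 and 178. Myl6b, a myosin light chain gene, had peaks at both ends, and Gm20783 had 3 around its far end.

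Divergent starts were more frequent among genes with a member. Another start on the opposite strand within 1 kb was found for 427 of 2675 genes with a member at their start (16.0%, interval 14.6 to 17.4%) and for 727 of the other 14816 genes with a known strand (4.91%, interval 4.57 to 5.27%). Read the other way, 37.0% of the 1154 genes with such a neighbour and 13.8% of the 16337 without had a member at the start. A peak between a pair is counted for both genes, which raises the first share. Genes with a member had a median length of 19.5 kb, compared with 16.4 kb for the others.

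Histone genes and cytosolic ribosomal protein genes had the highest shares of the 32 gene lists, none of which was tested. Members stood at 54 of 77 histone genes (70.1%, interval 59.2 to 79.2%), against 15.9% of all genes. By class these were 6 of 10 linker histone H1 genes, 14 of 21 H2A, 14 of 17 H2B, 10 of 15 H3 and 10 of 14 H4 genes. On chromosome 13, which holds the main histone cluster, 40 of 54 genes had a member, and on chromosome 3 it was 8 of 11. Genes without a member included H3f3b for the variant H3.3, H2az1 for the variant H2A.Z and the germ cell linker histones H1f6, H1f7 and H1f8. On chromosome 13 there were 14 genes without a member, H1f6 and others such as H2ac10, H3c4, H3c8 and H4c12. Some of these had a Pygo2 peak that overlapped β-catenin: 43 of the 54 genes had a peak of either kind, and 11 had neither. The variant genes H2ax and H1f0 had a member, so variants were found on both sides.

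The histone counts are not independent of each other or of β-catenin calls. The 54 genes were reached by 54 peaks, 21 of which lay at 2 or more histone genes, as in the pairs of this cluster that share a promoter region. At 13 of the 54 peaks a β-catenin peak centre lay within 1 kb without overlap, compared with 128 of all 3128 members (4.09%). Of the 77 genes, with or without a member, 12 had a Pygo2 peak that overlapped β-catenin. Histone genes are near-identical copies, and how reads with several matches were placed is not given in the sources used here. The median list position of the histone members was at 9.13% of the list.

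Members were also frequent at genes of the translation machinery. Cytosolic ribosomal protein genes had a member in 44 of 86 cases (51.2%), 28 of 53 for the large and 16 of 33 for the small subunit, with a median list position at 13.6%. Among the first-listed were Rpl41 (335 bp past its far end), Rpl13a (200 bp before the start) and Rpl3. Translation factor genes, which were taken by their Eif and Eef symbols, had a member in 27 of 70 cases (38.6%). These included Eif5a, Eif2b4 (49 bp before the start), Eif5, and Eef2. The Eef2 peak lay 471 bp past the far end and was nearest to the start of its neighbour Dapk3 (7 bp). Aminoacyl-tRNA synthetase genes had a member in 10 of 34 cases (29.4%, interval 16.8 to 46.2%), with Yars, Mars1, Sars2 and Qars listed first. At 5 of these genes a member was at a known start. With each peak given to its nearest end only, the background was 13.4%. The shares were then 47.7% for cytosolic ribosomal protein, 31.4% for translation factor and 20.6% for aminoacyl-tRNA synthetase genes.

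Other lists of broadly expressed genes also lay above the background of 15.9%, counting a peak for every gene with an end within 1 kb. Splicing factor genes had a member in 30 of 68 cases (44.1%), with Srsf3, Hnrnph3, Sf3b2 and Srsf7 listed first. For the respiratory chain and ATP synthase the count was 35 of 97 (36.1%), led by Atp5g2 and Atp5g1, which encode the membrane ring of the synthase. Mitochondrial ribosomal protein genes had 28 of 78 (35.9%), DNA replication and mitosis genes 16 of 46 (34.8%, among them Birc5, Mcm7, Ndc80 and Pcna), and proteasome subunit genes 13 of 39 (33.3%). RNA polymerase and general transcription factor genes had 22 of 75 (29.3%), among them Polr2a, whose product is the largest subunit of RNA polymerase II (126 bp before the start). Mediator subunit genes had 6 of 30 (20.0%), with an interval of 9.51 to 37.3% that includes the background. The intervals of the replication and mitosis (22.7 to 49.2%), proteasome (20.6 to 49.0%) and RNA polymerase lists (20.2 to 40.4%) include the 25.05% of CpG-rich start sites. Those of the splicing factor (32.9 to 55.9%), respiratory chain (27.2 to 46.0%) and mitochondrial ribosomal protein lists (26.1 to 47.0%) lie above it. With each peak given to its nearest end only, the background was 13.4%. The shares were then lower for splicing factor (38.2%), replication and mitosis (26.1%), respiratory chain and ATP synthase (25.8%), mitochondrial ribosomal protein (24.4%) and RNA polymerase genes (24.0%). The proteasome share stayed at 33.3%.

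**Figure D3:**
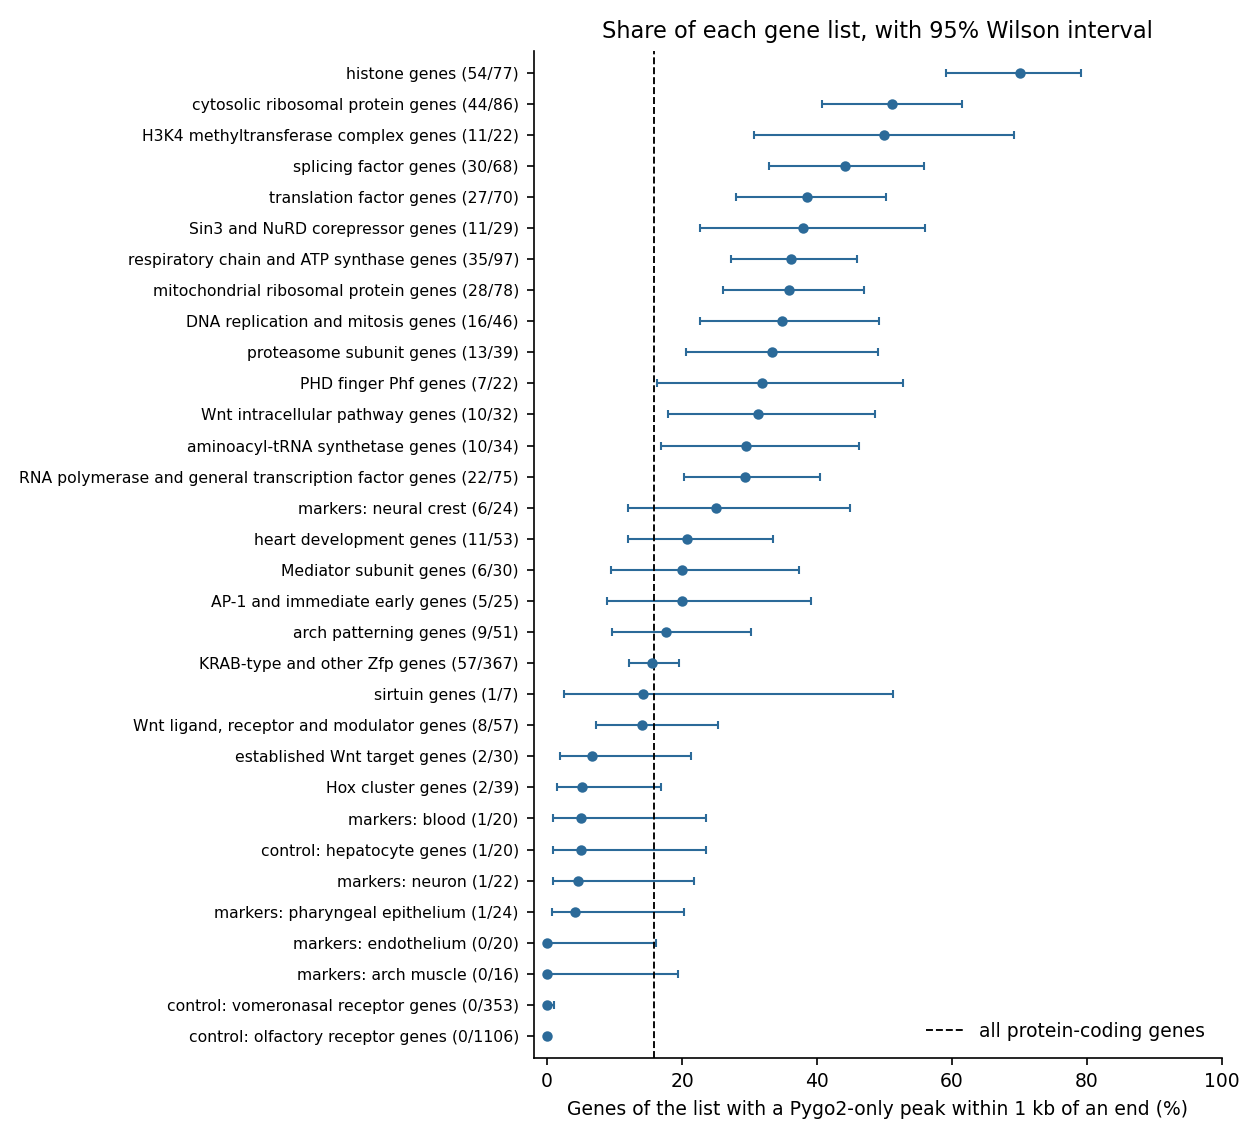
Share of the genes of each list that have a Pygo2-only peak within 1 kb of an end (horizontal axis, percent; points with 95% Wilson intervals; counts in parentheses), with the share of all protein-coding genes (15.9%) as a dashed line. Histone genes (70.1%) stand at the top, and olfactory and vomeronasal receptor genes, with no member at 1106 and 353 genes, at the bottom.

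Among chromatin regulators, complexes that methylate histone H3 at lysine 4, the residue read by the Pygo2 PHD finger, had a member at 11 of 22 genes (50%, interval 30.7 to 69.3%). These included the catalytic subunits Setd1a (255 bp before the start) and Setd1b, the host cell factor Hcfc1 and the adaptor Pagr1a (4 bp before the start), while Ash2l, Bod1 and Bod1l had none. Sin3 and NuRD corepressor genes had a member at 11 of 29 (37.9%), with Phf12, Rbbp4, Ing1 and Mbd3 listed first. Genes named Phf for their PHD fingers had 7 of 22 (31.8%), led by Phf12, Phf13, Phf7 and Phf1. Among sirtuins only Sirt4 of 7 had one, and Zfp zinc finger genes were at the background with 57 of 367 (15.5%).

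Among genes of the Wnt pathway the share with a member was 31.3% for intracellular components, 14.0% for ligands, receptors and modulators and 6.67% for targets, with overlapping intervals. Of 32 intracellular genes, 10 had a member (interval 17.95 to 48.6%). They were the Groucho corepressor genes Tle1, Tle3 and Tle4, Tnks2 (a tankyrase that turns over Axin), Csnk1d (a casein kinase), the Dishevelled genes Dvl1 and Dvl2, Tcf7l2 (a TCF/LEF factor), Bcl9l and Pygo2 itself. The Pygo2 peak was at chr3:89430348-89430514, 317 bp inside the Pygo2 start and also within 1 kb of Shc1, at list position 1732. The Bcl9l peak was centred 4 bp from an end of that gene. Apc, Apc2 and Axin1 had no member.

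Of 57 genes for ligands, receptors and modulators, 8 had a member (interval 7.29 to 25.3%). They were the Frizzled receptor genes Fzd1, Fzd2, Fzd3 and Fzd8, the ligand gene Wnt10a, the secreted inhibitor gene Wif1, the R-spondin receptor gene Lgr6 and the receptor ubiquitin ligase gene Znrf3. Dkk1, Dkk2 and Dkk3 had none. Of 30 established Wnt targets only Wif1 and Znrf3, which are also in the preceding list, had a member (interval 1.85 to 21.3%), and these were late in the list, first at positions 4535 and 6333. Axin2, a feedback target, had none. The interval of the targets includes the background of 15.9%.

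Developmental genes of the arches and heart were near the background. Heart development genes had a member in 11 of 53 cases (20.8%), with Smad6 (an inhibitor of BMP signalling, 746 bp before the start), Plxnd1 (a semaphorin receptor), Foxh1 and Vegfa listed first. Arch patterning genes had 9 of 51 (17.6%), led by Six2, Hoxa2, which specifies second arch identity (251 bp before the start), Meis1 and Gbx2 (55 bp inside the start). Of 39 Hox genes only Hoxa2 and Hoxc5 had a member (5.13%). Among the first 3575 list positions the heart share was 9.43% and the arch share 9.80%, both below the background of 10.8% there. Immediate early genes had 5 of 25 (20.0%), among them Junb, Ier2, Dusp1 and Fos.

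Markers of the cell types that arch tissue can hold had shares from 0 to 25%, and the intervals of all 6 lists include the background of 15.9%. Neural crest markers had 6 of 24 (interval 12 to 44.9%), among them Id3, Ngfr, Cdh11 and Erbb3. Among the first 3575 list positions their share was 8.33%, below the background of 10.8% in those positions. Pharyngeal epithelium had 1 of 24 (Cldn7), blood 1 of 20 (Epor), neurons 1 of 22 (Snap25), and endothelium and arch muscle 0 of 20 and 0 of 16 (upper Wilson limits 16.1% and 19.4%). Genes of a tissue not in the sample served as controls: hepatocyte genes had 1 of 20 (Ass1), olfactory receptor genes 0 of 1106 and vomeronasal receptor genes 0 of 353. No expression data from these embryos were used, and the activity of the listed genes in the arches was not tested.

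Few members had a β-catenin call near them, and the rule had removed every overlapping one. A β-catenin peak centre lay within 1 kb of 128 members (4.09%) and within 10 kb of 261 (8.34%), and the median distance to the nearest was 353 kb. For Pygo2-only peaks inside genes these shares were lower, 1.71% within 1 kb and 5.54% within 10 kb. Seen from the other protein, 96 of 232 β-catenin-only peaks at gene ends (41.4%) had a Pygo2 peak centre within 1 kb. At the level of genes, 124 had both a member and a β-catenin-only peak at an end, which is 46.1% of the 269 genes with such a β-catenin peak and 3.56% of the 3480 genes with a member. Over all genes 15.9% had a member and 1.23% such a β-catenin peak. The 2 lists have the IgG library as a common control.

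The start sites with a member were mostly CpG-rich. The table holds 21237 start sites of protein-coding genes, and 2959 of them had a member within 1 kb. These sites belong to 17491 genes, so some genes have several, and neighbouring sites can share a member. The shares and intervals count each site separately. CpG content was expressed as the observed number of CpG dinucleotides in the 300-base window over the number that its C and G content would give, and windows above 0.6 were called CpG-rich. By this measure 85.6% of the start sites with a member were CpG-rich (2533 of 2959, interval 84.3 to 86.8%), compared with 40.4% of the 17715 without any Pygo2 peak (interval 39.7 to 41.1%). Start sites with a shared Pygo2 peak gave 87.2% (116 of 133, interval 80.5 to 91.9%). Median GC content was 62.3% with a member and 55.0% without a Pygo2 peak.

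Read from the side of the start sites, 25.05% of the 10112 CpG-rich sites had a member, and 3.83% of the 11125 CpG-poor ones. Most CpG-rich start sites therefore had none. The share of CpG-rich sites was 87.3% for members among the first 3575 list positions and 81.6% for start sites with only later members. Both values were above the 47.6% of all start sites.

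**Figure D4:**
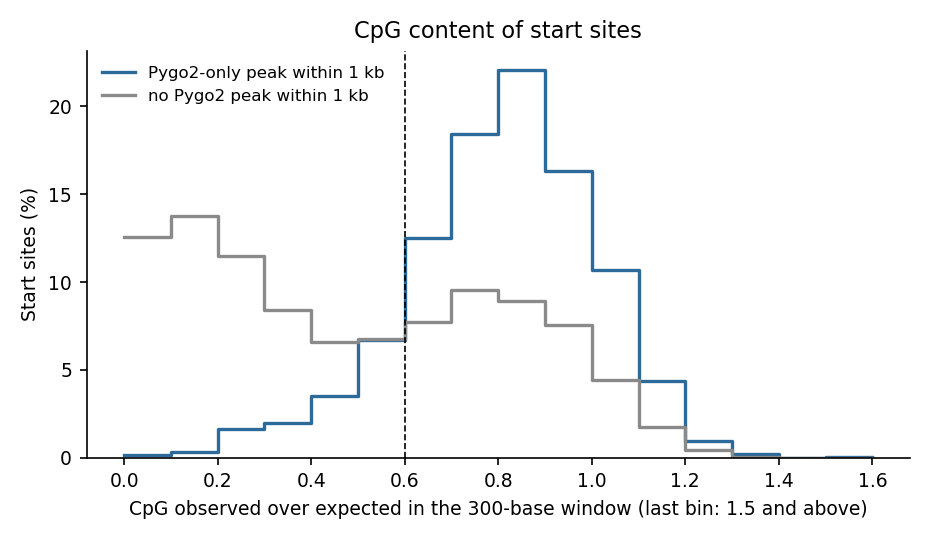
Distribution of CpG observed over expected in the 300-base windows of start sites (horizontal axis, bins of 0.1) as a percentage of the start sites of each group (vertical axis), for the 2959 with a Pygo2-only peak within 1 kb and the 17715 without any Pygo2 peak. The dashed line is the limit of 0.6, above which 85.6% and 40.4% lie.

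The 15 motifs were searched as exact letters on both strands in all 300 bases, so a match is a stretch of letters and not a bound site. The SP/KLF GC box (GGGCGG) was in 70.6% of the windows with a member and in 46.2% of all windows. The ETS core (CCGGAAG), recognised by Gabpa, Elk and other ETS factors, was in 22.9% and 11.6%. The NRF1 letters (GCGCATGC) was in 7.27% and 3.51%, the ZBTB33 letters (TCTCGCGA) in 3.41% and 1.40%, the YY1 letters (AAGATGGC) in 5.81% and 3.05%, and the ZNF143 letters (ACTACAA) in 5.61% and 3.602%. The TATA box (TATAAA) was in fewer windows with a member (6.69%, all windows 12.6%), as was the AP-1 site (TGANTCA, 2.74% and 6.99%).

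The CpG-rich and the CpG-poor windows were then looked at separately, a step added after these shares were seen. In CpG-rich windows the GC box was in 73.8% of the windows with a member and 74.2% of those without a Pygo2 peak, and the TATA box in 6.001% and 5.53%, so that neither gap seen over all windows was present among them. In CpG-poor windows both gaps were present: the GC box was in 51.4% of the 426 windows with a member and 19.2% of the 10560 without a Pygo2 peak, and the TATA box in 10.8% and 19.5%. The CpG-poor windows with and without a peak were, however, not alike in composition. Their median CpG observed over expected was 0.494 and 0.227, and their median GC content 56.3% and 49.0%. In CpG-rich windows these medians were 0.853 and 0.831, and 63.7% and 64.7%. Gaps among CpG-poor windows are therefore not gaps at equal CpG content. The AP-1 site was rarer with a member in both classes (2.61% and 3.82% in CpG-rich, 3.52% and 10.5% in CpG-poor windows). The ETS core had a gap in both classes, with 24.75% (interval 23.1 to 26.5%) against 18.03% (interval 17.2 to 18.9%) in CpG-rich and 11.7% against 3.74% in CpG-poor windows. In CpG-rich windows the CCAAT letters bound by NFY gave 40.5% and 35.3% (41.2% and 38.2% of member and all windows before). NRF1 (7.90% and 5.88%), ZNF143 (5.37% and 3.35%), YY1 (6.32% and 4.43%) and ZBTB33 (3.79% and 2.36%) were also higher there with a member. In windows that a member itself overlapped, the ETS core was in 26.4%.

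TCF/LEF factors are those through which β-catenin reaches DNA. Their core CTTTGAT was in 2.26% of the windows with a member and 3.22% of all windows, and the form CTTTGAA in 3.31% and 4.54%. In CpG-rich windows CTTTGAT was in 1.93% with a member and 2.05% without a Pygo2 peak, while CTTTGAA was in 3.20% (interval 2.58 to 3.96%) and 2.56% (interval 2.22 to 2.95%), with intervals that overlap. In CpG-poor windows they were in 4.23% and 4.30%, and in 3.99% and 6.37%. Of the remaining motifs, the E-box (CACGTG) was in 11.3% and 7.84% of member and all windows, the cyclic AMP response element (TGACGTCA) in 3.28% and 2.24%, its shorter form (TGACGT, part of the full element) in 12.7% and 8.49%, and the extended NFY form (ATTGGCTG, which contains CCAAT on the other strand) in 6.59% and 4.73%. Among CpG-rich windows with a member and without a Pygo2 peak these were in 12.2% and 11.1% (E-box), 3.59% and 3.82% (response element), 13.6% and 13.2% (shorter form) and 7.07% and 6.01% (extended NFY form), each pair with overlapping intervals. These windows do not cover the whole of each member's surroundings, and no match in a window says nothing of a factor.

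**Figure D5:**
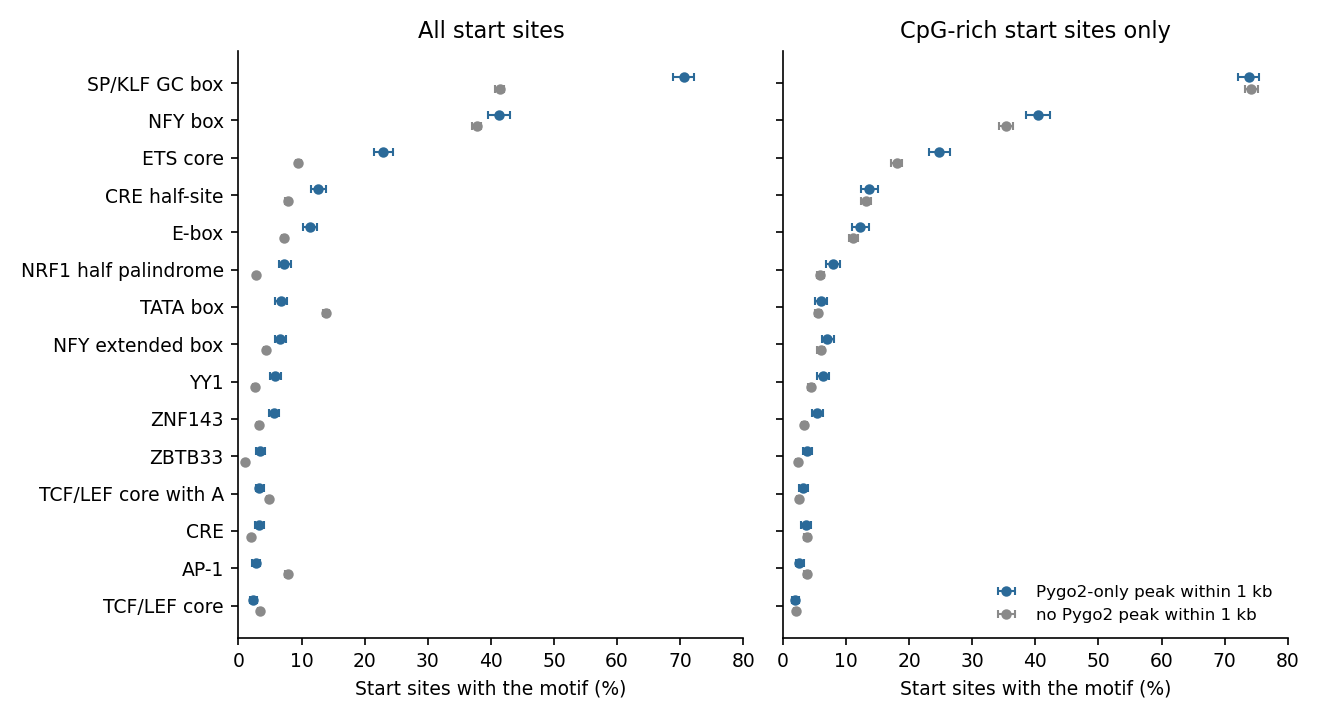
Share of 300-base start site windows that hold each motif (horizontal axis, percent; points with 95% Wilson intervals), with a Pygo2-only peak within 1 kb and without any Pygo2 peak, for all start sites (left) and for CpG-rich ones only (right). The GC box gap (70.6% and 41.4%, left) is not seen among CpG-rich sites (73.8% and 74.2%), while the ETS core has a gap there (24.75% and 18.03%).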

How the data were processed

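Peaks were called by the authors with HOMER findPeaks in factor style, per the file headers, against IgG BA1 (the names of the deposited lists mention IgG together with BA2), with a false discovery rate of 0.001 and at least 2-fold more tags than IgG. Bowtie, Bowtie2, HOMER and mm10 are named in the submitters' processing notes without versions. The deposited score is 1 for every peak and was not used further.

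Peaks were assigned to genes of a RefSeq table of GRCm38.p6 by centre, and strands and start site windows came from the RefSeq sequence table. Python 3.11.15, NumPy 2.4.6, pandas 2.3.3, SciPy 1.17.1 and Matplotlib 3.10.9 were used, and the code was tested on simulated data. The members, the 32 gene lists (3039 of 3040 symbols found) and the motifs were chosen with earlier results of these data known. The comparison of divergent starts and non-coding neighbours was chosen after values were seen, and H13, which is no histone gene, was then taken off the histone list.

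Named are Sirt4 and Phf12, the genes of the 25 first-listed members, 5 genes with the most members, up to 4 first-listed genes with and 3 without a member per list (all with one for Wnt lists), and the neighbours of the 1 kb limit. Genes named outside this rule (H3f3b, H2az1, H1f8, H2ac10, H3c4, H3c8, H4c12, H2ax, H1f0, the far-end genes and the motif examples) were chosen after values were seen. The 5′ windows of Sirt4 and Phf12 hold no base of a member, so they are not printed. Some genes that this rule names are not reported here. With 1 peak list per protein analysed, no test was made.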

Additional observations from a re-analysis of the deposited data

How the results depend on the processing

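The numbers, shares and median distance of the members were recomputed with a distance limit of 500 bp or 2 kb, with centres within 500 bp or an overlap of at least 84 bp counted as shared, and with the first 3575 list positions only. The number of members stayed within 1.5 times of 3128 except in the first 3575 positions, which held 2049. The share of Pygo2-only peaks at gene ends was 37.8% at 500 bp, 52.1% at 2 kb and 61.0% in the first 3575 positions. The share of starts was 96.2%, 92.4% and 95.3% in the same order, and the median distance 121, 188 and 127 bp. The counts of genes ran from 2373 to 3999, with 2938 when each peak was given to its nearest end only. Both other definitions of sharing left the share of Pygo2-only peaks (45.2% and 45.6%), the share of starts and the median distance within the interval of the main value.

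Of 32 gene lists, 31 stayed on the same side of the background at 500 bp, 32 at 2 kb, 28 in the first 3575 positions and 29 with nearest ends only. Those that changed side were the sirtuin genes (in 3 of these settings), heart development, arch patterning and neural crest marker genes (first 3575 positions), and Zfp and Wnt ligand genes (nearest ends only). With nearest ends only, the shares of histone (57.1%), mitochondrial ribosomal protein (24.4%) and respiratory chain genes (25.8%) fell below their main intervals. The list shares were not recomputed with other definitions of sharing. Motif shares in CpG-rich and in CpG-poor windows, alternatives chosen after seeing the data, left the main interval for 2 and 14 of 15 motifs. Divergent starts, chromosomes and non-coding neighbours have no alternative. No paired analysis was possible because 1 peak list per protein was analysed and no result comes from a test. Calls needed at least 10 tags for Pygo2 and 11 for β-catenin, so weaker sites are not listed. Genes without a strand in the tables limit the split of starts and far ends.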

Other observations

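The share of genes with a member differed between chromosomes. It was highest on chromosomes 11 (369 of 1609 genes, 22.9%) and 19 (142 of 705, 20.1%) and lowest on X (42 of 966 genes, 4.35%), with none of the 256 protein-coding genes of Y. The peak at Asmt, the first of the Pygo2 list, is among the 39 members on X. The number of X chromosomes in the pooled embryos and the mapping of reads there are not given in the sources used here, and their part in these values was not tested.

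Some members lay beside non-coding genes. Within 1 kb of the centre there was a tRNA gene at 27 of 3128 members, a small nuclear RNA gene at 12, a small nucleolar RNA gene at 12, a microRNA gene at 30 and a long non-coding RNA gene at 432 (13.8%). For tRNA genes this was 4 of the 103 members with far ends only (3.88%, interval 1.52 to 9.56%), 22 of the 2496 with a gene start (0.881%) and 2 of the 2166 Pygo2-only peaks inside genes (0.0923%). For long non-coding RNA genes the share among Pygo2-only peaks inside genes was 10.3%. Small nuclear RNA genes were near 0.384% of members and 0.277% of those peaks, and small nucleolar RNA genes near 0.384% and 0.0462%. For microRNA genes the shares were 0.959% and 0.646%. The intervals of each of these 3 pairs overlap.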
